A study of Mus musculus with 6 samples.

Results

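The collagen chain genes were examined in basal cells of the mouse mammary epithelium, the outer epithelial layer that rests on the basement membrane. All gene symbols made of Col, a number, the letter a and a number were taken, except Col17a1, which left 43 chains of 22180 genes measured on the arrays. Col21a1, also listed as a chain, was not analysed here. There were 3 wild type arrays and 3 knockout arrays, each from 1 biological replicate of virgin females aged 8 to 14 weeks. The knockout cells carried the genotype Trp53-/-, p16ink4a-/- and p19arf-/-, a genotype meant to lack the p53 protein and both products of the Cdkn2a locus. The labels name no promoter, Cre or cell type to which the loss was limited, and do not say which animals or pools made up a replicate. Glands were digested with collagenase, hyaluronidase, trypsin and dispase, most CD45, CD31 and TER119 positive cells were removed with beads, and a flow cytometer was used to sort the basal fraction. The comparison asks whether the level of any chain differed between the genotypes.

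Collagens are trimeric proteins of the extracellular matrix whose chains wind around each other in a triple helix. Fibrillar collagens, made mostly by fibroblasts, form the cables of connective tissue, and type IV collagen forms the sheet of the basement membrane, to which mammary basal cells attach through integrins. Type VI collagen forms beaded filaments next to that sheet, short chain collagens form hexagonal networks, and FACIT collagens, which have interrupted triple helices, sit on the surface of fibrils. Many trimers need products of several genes, so partner chains are described together below.

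The arrays correlated with each other at r between 0.971 and 0.988 across genes. The targeted gene Cdkn2a read 6.42, 5.84 and 6.48 in the wild type and 6.25, 6.31 and 6.39 in the knockout. The sources used here do not place its probes relative to the deletion, and with Trp53 not analysed here the labels have no check from the targeted genes. All 9 measured basal markers, such as Krt14 and Acta2, were above background on every array. So were 9 of 11 luminal markers, whose summed linear signal was 5795, 11369 and 9784 in the wild type and 6800, 7032 and 5297 in the knockout. Of the 11, only 1 had a log2 fold change, knockout minus wild type, above 0. Anxa3, at -0.48 (limma unadjusted p = 0.0137), had every knockout array below every wild type array, as did 4.05% of all genes. It did not pass the adjusted threshold. Values are log2 signals, and a probe set counted as above background where it exceeded the 95th percentile of 1105 olfactory receptor genes on the same array, between 5.34 and 5.75. By that rule 34 of the olfactory receptor genes themselves, 3.08%, were above background on all 6 arrays. Probe sets differ in affinity and are not scaled per length, so a higher signal of one gene than another is not a ratio of transcripts.

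No collagen chain differed between the genotypes past the threshold. With limma, 0 of 43 chains passed an adjusted p under 0.05, as did 0.00% of all 22180 genes, with 0.818 as the lowest adjusted p. When unadjusted p under 0.05 was asked for, 0 chains were higher and 0 lower, where 1.61% of all genes were higher and 1.71% lower. With replicate number as a block the unadjusted count over all genes rose from 736 to 1112, and that of the chains was 0. The smallest unadjusted p of any chain was 0.217. Log2 fold changes, knockout minus wild type, ran from -0.22 for Col18a1 to 0.19 for Col23a1, and 42 of 43 were smaller than 0.2 in size, as were 74.0% of all genes. Of the chains 25 were above 0 and 18 below, with a median of 0.05 beside -0.0067 for all genes.

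The intervals of these differences show how large a change the arrays could have missed. For all 43 chains the 95% interval of the log2 fold change, not adjusted for the number of chains, lay between -1 and 1, so a doubling or halving of signal lay outside it. The same held for 95.2% of all genes. For 28 chains, 65.1%, the interval lay within 0.5 of 0, against 45.8% of all genes. Col8a1 had the widest interval, from -0.94 to 0.85, and without any one of the arrays it alone reached past 1. For a probe set near background, the measured signal understates a change of the transcript.

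**Figure D1:**
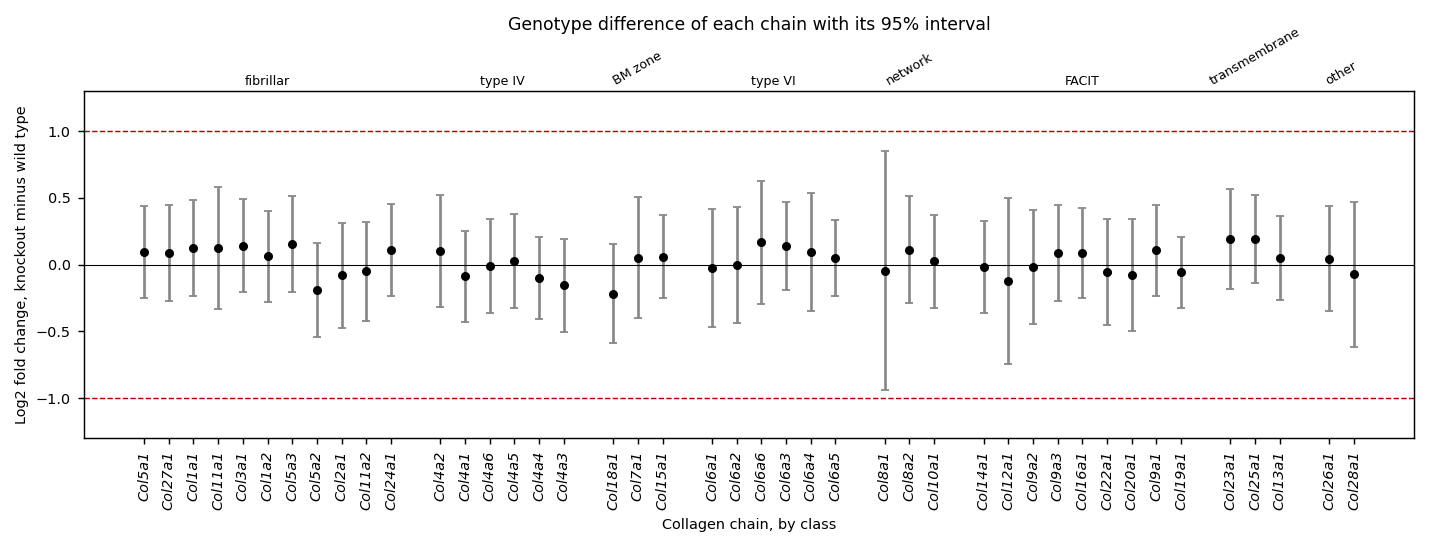
Log2 fold change of each of the 43 chains (vertical axis, knockout minus wild type) by class, with the limma 95% interval as bars and dashed lines at -1 and 1. All intervals cross 0 and stay between the dashed lines, and Col8a1 has the widest one.

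The groups of arrays separated for Col5a1 and Col25a1 only. Of the 43 chains these 2 had every knockout array above every wild type array, as did 3.63% of all genes. For 0 chains was every knockout array below, where 4.05% of all genes were, and separation in either direction was seen in 7.68% of all genes. Col5a1, a chain of type V collagen that seeds type I fibrils, read 7.02, 6.87 and 7.07 in the wild type and 7.08, 7.09 and 7.09 in the knockout. The highest wild type array lay just under the lowest knockout array, and the log2 fold change was 0.10 (standard error, SE, 0.153; limma adjusted p = 1). Col25a1, a transmembrane collagen known from neurons, read 6.08, 6.02 and 6.16 in the wild type and 6.28, 6.18 and 6.38 in the knockout. The log2 fold change was 0.19 (SE 0.145; limma adjusted p = 1). The count of separated chains moved with the arrays used. It lay between 2 and 9 upward and between 1 and 4 downward without any one array, was 9 and 2 without wild type replicate 1, and was 2 and 4 without wild type replicate 2. It was 5 and 1 without knockout replicate 2 and 5 and 2 without knockout replicate 3. Leaving an array out raised the count over all genes too, from 1704 of 22180 to between 3188 and 5385. The highest of these counts, 5385, was without wild type replicate 1. With quantile normalization 0 chains separated upward and Col18a1 alone downward, beside 1834 of all genes in either direction. With median centring Col13a1 alone separated, upward, beside 1747 of all genes. Col5a1 and Col25a1 thus overlapped under both of these scalings, and Col5a1 also overlapped with the mean of all rows of a gene.

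**Figure D2:**
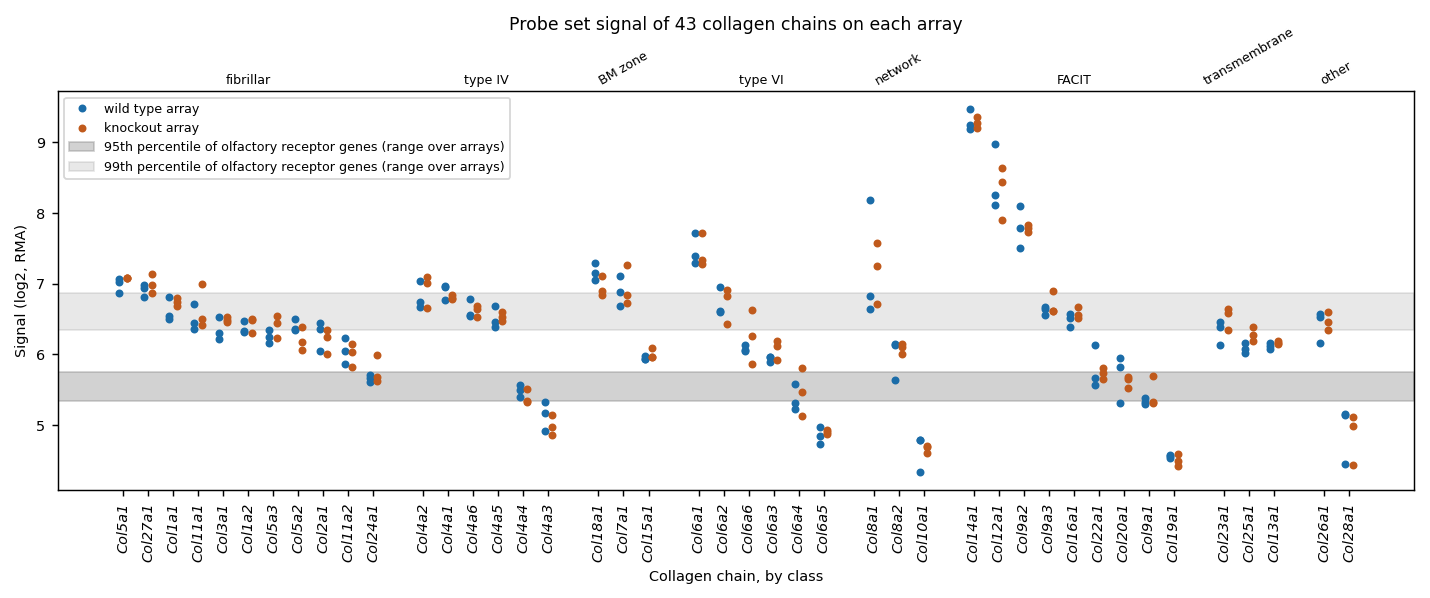
Signal (vertical axis, log2 RMA) of each chain on each of the 6 arrays, by class, with wild type and knockout arrays side by side and grey bands for the range over arrays of the 95th and 99th percentiles of olfactory receptor genes. Of 43 chains 32 lie above the 95th percentile on every array and 8 above the 99th, led by Col14a1. The share of all genes above the 99th was not counted.

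By signal, 32 of 43 chains, 74.4%, were above background on all 6 arrays, where 47.4% of all genes were. Another 6 were above it on some arrays and 5 on none. Only 8 chains also exceeded the 99th percentile of the olfactory receptor genes on every array, between 6.35 and 6.87. These were Col14a1, Col12a1 and Col9a2 of the FACIT class, Col6a1, Col18a1, Col7a1, Col5a1 and Col27a1. The other 24 of the 32 lay below that higher percentile on at least 1 array. The share of all genes above this higher percentile was not counted here, so the 8 chains cannot be set against it. By mean signal the dimmest of the 8, Col7a1, stood at percentile 71.2 of all genes.

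FACIT chains held the 3 highest signals of the family. Col14a1, which binds fibrils and decorin, read 9.24, 9.47 and 9.19 in the wild type and 9.21, 9.36 and 9.27 in the knockout. These values lay between 3.49 and 4.13 above the background threshold, the groups overlapped, and the log2 fold change was -0.02 (SE 0.153), with a 95% interval from -0.36 to 0.33. Col12a1, a fibril-associated chain found where tissue bears tension, read 8.26, 8.98 and 8.12 in the wild type and 8.64, 8.44 and 7.90 in the knockout, so that the highest and lowest arrays were 1 of each genotype. The genotype difference was -0.12 (SE 0.274), and turned to 0.14 without wild type replicate 2. Type IX collagen, best known from cartilage, needs chains of 3 genes. Col9a2 read 8.11, 7.51 and 7.79 in the wild type and 7.79, 7.73 and 7.83 in the knockout, with the wild type arrays on both sides of the knockout arrays. Its partner Col9a3 had group means of 6.62 and 6.71, while Col9a1 was above background on 2 arrays only, with means of 5.34 and 5.44.

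Among the other FACIT chains, Col16a1 was above background throughout, with means of 6.49 ± 0.093 (SD, n = 3) in wild type and 6.58 ± 0.077 in knockout cells. Col22a1 and Col20a1 were above it on 5 arrays each, and Col19a1 on 0. Their log2 fold changes were -0.06, -0.08 and -0.06. Of the 9 FACIT chains 3 had a log2 fold change above 0 and 6 below, with a median of -0.02. That median turned to 0.0053 with quantile normalization and 0.06 with array weights.

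Type IV chains, the core of the basement membrane, fell into 4 that were above background on all arrays and 2 that were not. Col4a1 and Col4a2, which form the common trimer of basement membranes, were above background on all arrays. Col4a1 read 6.77, 6.95 and 6.97 in the wild type and 6.79, 6.79 and 6.85 in the knockout, all within a range of 0.20. Col4a2 read 6.68, 7.04 and 6.74 in the wild type and 6.66, 7.09 and 7.0046 in the knockout. The log2 fold changes of these partners were -0.09 and 0.10, with standard errors of 0.152 and 0.185 and overlapping groups in both. Col4a5 and Col4a6, partners in the basement membranes of ducts and smooth muscle, had log2 fold changes of 0.03 and -0.01. Col4a3, which joins Col4a4 and Col4a5 in kidney and lung trimers, was above background on 0 arrays. It read 5.18, 4.92 and 5.33 in the wild type and 5.14, 4.86 and 4.97 in the knockout, and its log2 fold change of -0.15 was the largest in size of the class. Col4a4 was above background on 1 array, with a log2 fold change of -0.10. Of the 6 chains 2 had a log2 fold change above 0 and 4 below, with a median of -0.05, which was 0.0077 over the 4 chains left when dim genes were dropped.

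Chains of the basement membrane zone include the multiplexins Col15a1 and Col18a1, whose ends are cut into fragments that restrain blood vessel growth, and Col7a1, the anchoring fibril chain that ties stratified epithelia to the tissue below. Col18a1 had the log2 fold change furthest below 0 of all chains. It read 7.05, 7.30 and 7.16 in the wild type and 6.84, 7.11 and 6.89 in the knockout, a log2 fold change of -0.22 (SE 0.165) and an interval from -0.59 to 0.15 (limma adjusted p = 1). Knockout replicate 2 lay within the wild type range. Same-numbered arrays were each lower in the knockout, but the labels do not state what such arrays share. With replicate number as a block the limma unadjusted p was 0.21. Col7a1 read 7.11, 6.69 and 6.89 in the wild type and 6.84, 6.73 and 7.27 in the knockout, and its log2 fold change of 0.05 turned to -0.11 without knockout replicate 3. Col15a1 was dimmer, with means of 5.95 and 6.01 and a log2 fold change of 0.06. The median of these 3 chains was 0.05.

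Type VI chains were above background in 4 of 6 cases, with a median log2 fold change of 0.07, above 0 in 4 and below in 2. Col6a1, Col6a2 and Col6a3 form the classical trimer. Col6a1 read 7.39, 7.29 and 7.72 in the wild type and 7.28, 7.71 and 7.34 in the knockout, with 1 high array in each genotype and a log2 fold change of -0.02. Col6a2 had a log2 fold change of -0.0004 between means of 6.72 in both groups, and Col6a3 one of 0.14 between means of 5.94 and 6.08. Col6a6, which can take the place of Col6a3, had the largest difference of the class. It read 6.13, 6.07 and 6.05 in the wild type and 6.26, 5.86 and 6.63 in the knockout, so the knockout arrays lay on both sides of the wild type arrays. Its log2 fold change of 0.17 turned to -0.02 without knockout replicate 3. Col6a4 was above background on 1 array and Col6a5 on 0, with log2 fold changes of 0.09 and 0.05.

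Fibrillar chains had log2 fold changes from -0.19 to 0.155. Of the 11 chains 10 were above background on all arrays and Col24a1 on 5. Col1a1, the main chain of type I collagen, read 6.81, 6.55 and 6.50 in the wild type and 6.69, 6.80 and 6.74 in the knockout. Its partner Col1a2 read 6.48, 6.31 and 6.33 in the wild type and 6.31, 6.51 and 6.49 in the knockout. Col3a1, which forms type III collagen and is often found with type I, read 6.53, 6.22 and 6.31 in the wild type and 6.52, 6.46 and 6.49 in the knockout. In all 3 chains the highest wild type array was replicate 1 and the groups overlapped. Their log2 fold changes were 0.13, 0.06 and 0.14, with standard errors of 0.159, 0.151 and 0.154. The value of Col1a2 depended on the probe row, since a dimmer row, not used here, gave 0.69, with a high value on knockout replicate 3 alone. The mean of both rows gave 0.38 (limma unadjusted p = 0.137).

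Type V chains, partners in 1 trimer, did not point one way. Col5a1 and Col5a3 had log2 fold changes of 0.10 and 0.155, and Col5a2 had one of -0.19, the largest in size of the fibrillar class. Col5a2 read 6.37, 6.35 and 6.50 in the wild type and 6.07, 6.18 and 6.39 in the knockout, with knockout replicate 3 inside the wild type range and the other knockout arrays below it (limma adjusted p = 1). The cartilage chains Col2a1, Col11a1 and Col11a2 had log2 fold changes of -0.08, 0.12 and -0.05, and Col27a1 and Col24a1 of 0.09 and 0.11. Altogether 8 fibrillar chains had a log2 fold change above 0 and 3 below, with a median of 0.10 that lay between 0.04 and 0.12 without any one array.

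Of the fibroblast markers some had a higher signal in the knockout, although 0 of 10 passed the adjusted threshold, and others did not. In such bulk samples fewer cells of a type and less RNA per cell cannot be told apart. Of 10 fibroblast markers 4 were above background on all arrays, and 6 had a log2 fold change above 0. Their summed linear signal was 4297, 3159 and 2467 in the wild type and 4288, 4585 and 4990 in the knockout, most of it from decorin. Decorin (Dcn), a small proteoglycan that binds collagen fibrils, read 11.92, 11.34 and 11.0041 in the wild type and 11.85, 11.93 and 12.11 in the knockout, a log2 fold change of 0.54 (SE 0.210). Dermatopontin (Dpt), a fibril-binding matrix protein, read 6.06, 6.71 and 6.01 in the wild type and 7.45, 7.47 and 7.50 in the knockout. Its log2 fold change was 1.21, that of lumican (Lum) 1.28 and that of Pdgfra, the receptor that defines fibroblasts, 0.85 (limma adjusted p = 1 for each of these markers). The limma unadjusted p was 0.0302 for Dcn, 0.000275 for Dpt, 0.00181 for Lum and 0.0397 for Pdgfra. For the other fibroblast markers it was 0.155 or more, and 1.61% of all genes were higher at an unadjusted p under 0.05.

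The other markers did not share this direction throughout. Log2 fold changes were -0.03 for Mfap5, 0.24 for Clec3b, 0.0016 for Pi16, -0.28 for Twist2 and -0.09 for Smoc2, and Fap, at -0.20, had every knockout array below every wild type array. Lum was above background on 1 array and Pdgfra on 3, while Fap, Twist2 and Smoc2 were above it on 0. The difference between markers and chains was not tested, nor was the part of fibroblast RNA in the collagen values. Pericyte markers had a summed signal of 359 to 447 in wild type and 351 to 423 in knockout cells, with 2 of 8 above background on all arrays, and endothelial markers one of 367 to 477 and 433 to 475, with 2 of 10. Leukocyte markers had 0 of 10 above background on all arrays, and Schwann cell markers 2 of 4. Adipocyte markers, of cells that also make type IV and type VI collagen, had 3 of 9 above background, and their summed signal was 644 to 726 in wild type and 1000.3 to 1274 in knockout cells. That gap came from Fabp4, a fatty acid binding protein also made by endothelial cells, with a log2 fold change of 1.31 (limma adjusted p = 0.818). Without it the sum of the other 8 markers was 360 to 428 in wild type and 407 to 429 in knockout cells, so the groups overlapped. Of the 9 markers 8 had a log2 fold change above 0. Fabp4 and Retn had every knockout array above every wild type array, as did 3.63% of all genes. Plin1 and Lep were above background on all 6 arrays, with log2 fold changes of 0.09 and 0.14. Adipoq was above it on 0 arrays, with a log2 fold change of -0.05. The part of adipocyte RNA in the collagen values was not tested.

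**Figure D3:**
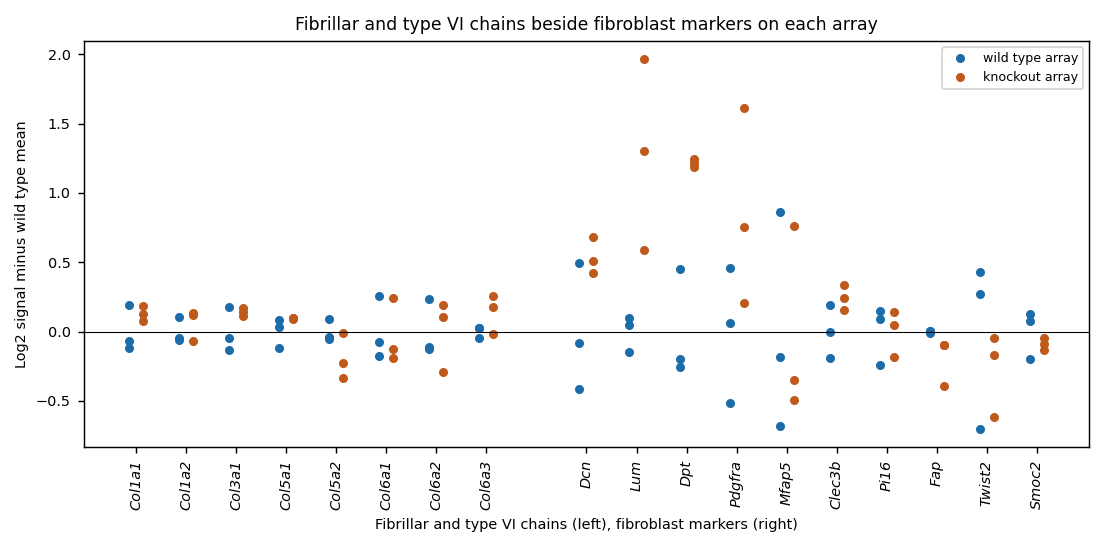
Log2 signal of each array minus the wild type mean (vertical axis) for 8 fibrillar and type VI chains, at the left, and 10 fibroblast markers, at the right. The knockout arrays of Dpt and Lum lie above all wild type arrays, by 1.21 and 1.28 on average, those of Fap below, and the means of Col1a1, Col1a2 and Col3a1 differ by 0.13, 0.06 and 0.14.

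The network class held the chain that varied most between arrays. Col8a1, a short chain collagen of vessel walls and of the membrane under the corneal endothelium, read 6.65, 8.19 and 6.83 in the wild type and 7.58, 7.25 and 6.71 in the knockout. Wild type replicate 2 stood 1.54 above wild type replicate 1, and the knockout arrays fell between them. The standard deviation within genotypes was 0.671, at the 98.9th percentile of all genes. The log2 fold change of -0.04 turned to 0.44 without wild type replicate 2 and was -0.33 without wild type replicate 1. Col12a1 had the next highest spread of the chains, 0.423, and its 3 brightest arrays, wild type replicate 2, knockout replicate 1 and knockout replicate 2, came in the same order as those of Col8a1. Wild type replicate 2 also had the highest summed luminal signal, 11369, and Kit, a luminal progenitor receptor of that list, read 7.24, 8.53 and 7.22 in the wild type and 7.67, 7.52 and 7.24 in the knockout. Kit was singled out with its values known. Of the 11 luminal markers 9 were highest on wild type replicate 2, but 8 were second highest on wild type replicate 3, such as Krt18 at 11.78, where Col8a1 read 6.83 and Col12a1 8.12. The part of luminal cells in the values of Col8a1 and Col12a1 was not tested.

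Most chains varied less than that. The median standard deviation within genotypes was 0.144 over the chains and 0.207 over all genes, and 14 of 43 chains exceeded the latter. Col8a2, the partner of Col8a1, read 6.13, 5.64 and 6.14 in the wild type and 6.01, 6.10 and 6.15 in the knockout, so it was lowest on wild type replicate 2, where Col8a1 was highest. Its log2 fold change was 0.11, and -0.05 without that array. Col10a1, the chain of hypertrophic cartilage, was above background on 0 arrays and had a log2 fold change of 0.03, the median of the 3 network chains. Wild type replicate 2 was the lowest array for 14 chains, and knockout replicate 3 was the highest array for 12 chains. The shares over all genes were not counted, so a trait of the arrays cannot be told apart from one of the chains. Wild type replicate 2 also had the lowest background threshold, 5.34, and a link with its count was not tested.

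**Figure D4:**
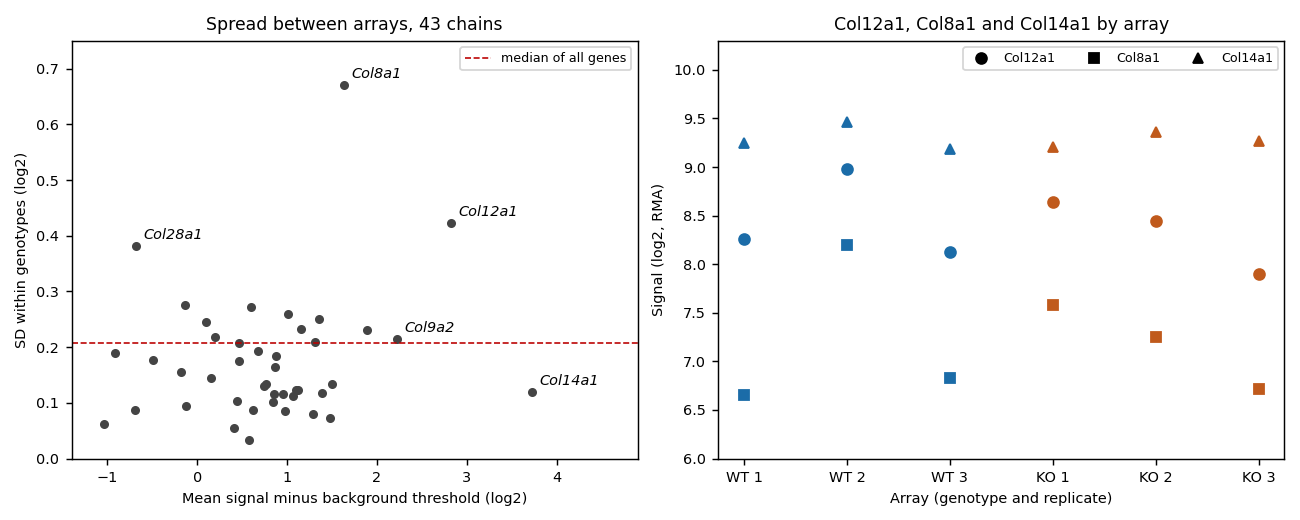
Left, standard deviation within genotypes (vertical axis, log2) of the 43 chains against their mean signal above the background threshold, with the median of all genes dashed. Right, log2 signal of Col12a1, Col8a1 and Col14a1 on each array, where Col8a1 and Col12a1 are highest on wild type replicate 2 and Col14a1 stays between 9.19 and 9.47.

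Transmembrane chains, which are anchored in the cell surface and shed from it, were all above background on every array. Col23a1 read 6.47, 6.14 and 6.39 in the wild type and 6.64, 6.59 and 6.35 in the knockout, with overlapping groups and a log2 fold change of 0.19 (SE 0.167). Col13a1 had a standard deviation within genotypes of 0.034, and means of 6.12 and 6.17. All 3 chains had a log2 fold change above 0, with a median of 0.19 that was 0.096 without wild type replicate 2. Of the remaining chains, Col26a1 read 6.58, 6.16 and 6.53 in the wild type and 6.46, 6.35 and 6.60 in the knockout. Col28a1, a chain known from Schwann cells, was above background on 0 arrays. It read 5.16, 4.46 and 5.14 in the wild type and 4.98, 5.12 and 4.44 in the knockout.

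Several chains are neighbours in the genome, and 0 of these passed the test of genotype either. In the RefSeq gene table of GRCm38.p6, 8 pairs of chains were adjacent protein coding genes, and Col4a1 with Col4a2 and Col4a5 with Col4a6 lay head to head, transcribed away from each other from nearby starts. Col3a1 and Col5a2, neighbours on chromosome 1, had log2 fold changes of 0.14 and -0.19, and Col4a3 and Col4a4, also on chromosome 1, of -0.15 and -0.10. For both of these pairs the orientation was not determined here, since the start windows used did not give the strands of both genes. Start windows of 300 bases, 250 of them before the start, were given in RefSeq for 34 of the 43 chains, in 37 windows. The motif GGGCGG, a GC box bound by Sp1 family factors, was present on either strand in 23 of the 37 windows, 62.2%, and in 35.7% of all 32851 windows. CCAAT was present in 32.4% against 37.4% and TATAAA in 10.8% against 13.6%. The p53 half-site consensus was present in 3 windows, of Col6a6, Col9a2 and Col20a1, 8.11% against 8.36% of all windows. Motifs were searched separately and may overlap.

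The 250 bases before the start are shown 5′ to 3′ on the gene's strand for the head-to-head pair Col4a5 and Col4a6 and for Col5a1 and Col25a1, the chains whose groups of arrays separated. Capitals mark the GC box and the CCAAT box on either strand, and TATAAA was not in these stretches. Col4a5 lies on the plus strand at chrX:141475169-141475418, Col4a6 on the minus strand at chrX:141474077-141474326, Col5a1 on the plus strand at chr2:27886175-27886424 and Col25a1 on the plus strand at chr3:130180595-130180844, all in GRCm38.p6.
Col4a5: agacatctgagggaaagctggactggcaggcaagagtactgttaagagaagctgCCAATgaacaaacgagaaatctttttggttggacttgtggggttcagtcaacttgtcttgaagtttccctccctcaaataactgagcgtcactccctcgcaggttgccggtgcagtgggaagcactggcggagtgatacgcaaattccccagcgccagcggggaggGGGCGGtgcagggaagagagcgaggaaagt
Col4a6: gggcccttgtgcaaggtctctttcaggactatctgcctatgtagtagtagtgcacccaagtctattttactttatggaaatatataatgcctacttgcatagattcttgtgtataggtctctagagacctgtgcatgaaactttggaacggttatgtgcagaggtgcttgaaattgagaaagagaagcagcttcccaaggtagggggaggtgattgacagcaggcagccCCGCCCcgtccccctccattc
Col5a1: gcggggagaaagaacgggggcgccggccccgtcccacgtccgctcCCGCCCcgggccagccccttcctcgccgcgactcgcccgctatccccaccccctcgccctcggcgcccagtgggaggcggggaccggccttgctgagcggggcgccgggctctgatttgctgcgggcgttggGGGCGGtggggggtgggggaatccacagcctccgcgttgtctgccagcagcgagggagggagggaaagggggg
Col25a1: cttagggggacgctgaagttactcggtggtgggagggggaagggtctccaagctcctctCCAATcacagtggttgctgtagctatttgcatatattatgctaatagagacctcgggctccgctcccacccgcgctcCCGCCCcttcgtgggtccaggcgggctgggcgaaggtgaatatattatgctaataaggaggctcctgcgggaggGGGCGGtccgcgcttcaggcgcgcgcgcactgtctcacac
Col5a1 and Col25a1 held 2 GC boxes each in this stretch and Col4a5 and Col4a6 held 1 each. GC content was 76.4% before Col5a1, 60.4% before Col25a1, 54.0% before Col4a5 and 47.6% before Col4a6.

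Genes that modify, fold, export, cut, crosslink and bind collagen were examined beside the chains. Of 48 listed genes 43 were measured. With limma 0 passed an adjusted p under 0.05, 21 had a log2 fold change above 0 and 22 below, and the median was -0.0071. At an unadjusted p under 0.05, 1 of the 43 was higher and 0 were lower, beside 1.61% and 1.71% of all genes. The groups separated for P4ha1 and Colgalt1, with the knockout higher, and for P4ha2, with the knockout lower, beside 3.63% and 4.05% of all genes. These counts are near the shares over all genes.

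P4ha1, a catalytic subunit of the prolyl 4-hydroxylase that stabilizes the triple helix, read 6.73, 6.59 and 6.95 in the wild type and 6.97, 7.32 and 7.30 in the knockout. The log2 fold change was 0.44 (SE 0.180; limma unadjusted p = 0.0365, adjusted p = 1). It was 0.28 with array weights (limma unadjusted p = 0.13) and between 0.36 and 0.56 without any one array, where the limma unadjusted p ran from 0.0279 to 0.107. P4ha2, the alternative catalytic subunit, read 5.95, 6.0037 and 5.69 in the wild type and 5.63, 5.67 and 5.27 in the knockout. Its log2 fold change was -0.36 (SE 0.167; limma unadjusted p = 0.0618, adjusted p = 1; unadjusted p = 0.042 with replicate number as a block), and -0.23 without knockout replicate 3. The knockout arrays thus lay higher in one subunit and lower in the other, while P4hb, the shared beta subunit, had a log2 fold change of 0.09. P4ha2 was near background: it was above it on 5 arrays, and its 5.27 on knockout replicate 3 lay under the threshold of 5.62. Colgalt1, which adds galactose to hydroxylysine, read 7.94, 7.98 and 7.80 in the wild type and 8.06, 8.12 and 8.03 in the knockout, a log2 fold change of 0.16.

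In the other steps the smallest p belonged to genes whose groups overlapped. Among folding and export genes this was Mia2, which was above background on 0 arrays, and Serpinh1, the collagen chaperone Hsp47, had a log2 fold change of 0.08. Among crosslinking enzymes it was Loxl4, a lysyl oxidase, with 6.38, 6.40 and 6.02 in the wild type, 6.09, 6.02 and 5.91 in the knockout and a log2 fold change of -0.26. Among the proteases that remove propeptides it was Tll1, above background on 0 arrays. Among receptors it was Itga1, a collagen-binding integrin chain, with 8.75, 8.75 and 8.34 in the wild type, 8.89, 8.98 and 8.69 in the knockout and a log2 fold change of 0.24 (limma unadjusted p = 0.219). It was 0.38 with array weights (limma unadjusted p = 0.0445, adjusted p = 0.559) and 0.10 without wild type replicate 3. Serpinh1 and P4hb were singled out with their values known.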

How the data were processed

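Biotin-labelled RNA of 3 wild type and 3 knockout replicates was hybridised to whole-transcript arrays, 1 array each. Each probe set has a deposited log2 signal. The authors used RMA and Transcriptome Analysis Console 4.0, per the submitters' processing notes. RMA subtracts background, equalizes array distributions and summarizes probes, which can narrow differences of dim genes. Precision is limited by the number of arrays, which have no read depth. Scan dates were not used here.

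Of 41345 rows 23521 had 1 gene symbol, 1814 several and 16010 were unnamed. The brightest row of a gene was kept, which left 22180 genes. Of the chains 3 had several rows, and 43 of 43 were found in the RefSeq table. Genotypes were compared over all genes with limma 3.58.1 in R 4.3.3 (eBayes with mean trend), two-sided, with Benjamini-Hochberg adjustment at 0.05. An exact permutation of 3 against 3 cannot give a p under 0.1. The members, classes and lists were chosen with earlier results of these data known. Named genes were chains with separated groups, an unadjusted p under 0.05, the highest signal or the largest change in a class, or the 6 highest signals, and likewise separated genes or the smallest p in each processing step. Outside this rule, values on each array were also given for Col1a1, Col1a2, Col3a1, Col4a1 and Col7a1, with their values known. Of 76 marker entries 71 were measured.

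Same-numbered arrays shared deviations from the group means, with r of 0.121, 0.25 and 0.127 across genes, but the labels do not state what same-numbered replicates have in common, and wild type replicate 1 reached 0.13 with knockout replicate 3. The fit was tested on simulated arrays of 22180 genes with 200 changed in each of 10 runs. It recovered 3.2%, 47.0%, 92.6% and 97.4% of log2 changes of 0.5, 1, 2 and 3, with 4 false calls per run on average. The changed genes were drawn at random from all genes, and the noise was independent between genes. Deviations that genes share on a real array were thus left out, and the rates are not those of dim chains. The Benjamini-Hochberg cut also depends on how many genes change and by how much. In the real data 0 genes passed it, so a lone change would face a stricter cut than in the simulation. Alternatives changed the prior, array weights, scaling, the dim gene filter, the choice of rows, the pairing and the background threshold, and left out each array. Figures used matplotlib 3.10.9.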

Additional observations from a re-analysis of the deposited data

How the results depend on the processing

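Of all chains, 0 passed an adjusted p under 0.05 under any alternative, and 0 reached an unadjusted p under 0.05, with the lowest at 0.0867 with array weights for Col5a2. Replicate as a block gave 0 genes past the threshold and changed no call of a chain. Chains separated upward numbered 0 with quantile normalization (1 downward, Col18a1), beside 1834 of all genes in either direction. The 1 with median centring was Col13a1, beside 1747 of all genes. The 1 with the mean of all rows of a gene was Col25a1, beside 1713 of all genes. Above background on all arrays were 8 chains at the 99th percentile of olfactory receptor genes, where the share of all genes was not counted. The FACIT median was 0.062 with array weights and the type IV median 0.0077 without dim genes. Without each array in turn the separated chains numbered 2 to 9 upward and 1 to 4 downward. Over all 22180 genes between 3188 and 5385 then separated in either direction, against 1704 with all arrays. The medians then lay between 0.026 and 0.10 for all chains, -0.025 and 0.098 for FACIT chains, -0.11 and 0.082 for the basement membrane zone, and 0.096 and 0.22 for transmembrane chains. The causes of these shifts were not tested. Groups of fewer arrays separate more easily by construction, so separated counts without an array do not compare with those of all arrays. The count of chains with intervals within 1 of 0, chosen after seeing the data, was 42 without any one array, and 35 of the 35 chains left without dim genes. Signal near background limits what can be seen in chains under the 99th percentile.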

Other observations

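Col1a2, Col5a1 and Col6a1 each had a further row with a single symbol that was dimmer and not used above. The further row of Col1a2 read 4.28, 4.27 and 4.53 in the wild type and 4.52, 4.49 and 6.14 in the knockout. It was thus high on knockout replicate 3 alone, where the row used read 6.49, against 6.31 and 6.51 on the other knockout arrays. The further row of Col5a1 read 5.13, 4.83 and 4.94 in the wild type and 4.96, 4.98 and 5.29 in the knockout. That of Col6a1 read 5.47, 5.29 and 5.51 in the wild type and 5.23, 5.27 and 5.91 in the knockout. All 3 of these dim rows were thus highest on knockout replicate 3.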
